A study of Mus musculus with 24 samples.

Results

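The genes described here are 10 imprinted genes outside the Igf2 locus: Dlk1, Grb10, Plagl1, Peg3, Zim1, Meg3, Mest, Peg10, Ndn and Impact. They were found by their gene symbol in the probe annotation, and each had exactly 1 row, so 10 of the 18819 genes of the array with a single symbol are followed. RNA came from ventricle of mice of C57BL/6J background in 4 groups of 6 hearts, which differ in genotype (wild type or knockout) and in age. The newborn animals were labelled postnatal day 1 to 2 and the young animals postnatal day 30, and the methods give slightly different age windows for both. The knockout mice carried a floxed caspase-3 gene deleted by Cre recombinase from an Nkx2.5 promoter and enhancer, which is active from the commitment of heart cells on, and a caspase-7 gene deleted in every tissue. Cells that do not use this promoter, such as cardiac fibroblasts, kept the floxed gene. The design text gives about 3 males and 3 females in a group, but no sample carries its sex. On build GRCm38.p6 of RefSeq, Dlk1 (chr12:109452485-109463336) and Meg3 (chr12:109540996-109571729) lie in one imprinted domain and Zim1 (chr7:6674444-6696540) and Peg3 (chr7:6703892-6730462) in another, while Ndn is at chr7:62348277-62349928, Mest at chr6:30733506-30748466, Peg10 at chr6:4747306-4760517, Plagl1 at chr10:13090832-13131694 and Grb10 at chr11:11930499-12037428.

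An imprinted gene is read mainly from the copy inherited from one parent, under a control region in its domain whose DNA methylation is set in the germ line of one parent and differs between the copies. Many of these genes act on fetal growth, those read from the paternal copy mostly promoting it and those read from the maternal copy mostly restraining it, and in the mouse a number of them are switched down together in several organs as growth slows after birth. Of the 10 genes, 7 are known to be read mainly from the paternal copy, and Grb10, Meg3 and Zim1 mainly from the maternal copy. The arrays gave the sum of both copies, so the parental origin of the RNA was not measured.

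Values are log2 RMA signals, so a difference of 1 is a doubling, and levels of different genes cannot be compared because their probes differ. Over all 24 arrays the values ran from 1.07 to 13.5, and the mean correlation of arrays within a group was 0.985 to 0.993. Ventricular myocyte markers were high in every group, with a mean signal of 12.1 to 12.6 over 10 genes. Some arrays stood apart. The newborn wild type and newborn knockout arrays numbered 4 lay in the range of the other genotype for Peg10, and 482 genes differed between the newborn genotypes without these 2 arrays against 0 with them. Among young hearts, wild type 2 had the highest atrial marker level of its group, 8.64 against 5.72 to 7.42 in the others, and knockout 3 the lowest, 6.13 against 7.63 to 9.16. Results that rest on these arrays are given with and without them.

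The first question was how these genes changed as the ventricle matured. In wild type ventricle 9 of the 10 genes fell between birth and 30 days and Impact rose. Every one of the 6 young values lay below every newborn value for all 9 that fell, with falls from 2.71-fold for Ndn to 31.4-fold for Dlk1. By limma, at an adjusted p under 0.05, 47 percent of all genes tested changed, 27.9 percent lower and 19.2 percent higher, and the groups were separate for 29.7 percent, 18.2 percent of all genes being lower. With each array centred on its own median these shares became 15.9 percent lower and 52.3 percent higher, and the 9 genes still fell. The median change of the 10 genes was -2.01 on the log2 scale against 0.0024 over all genes. All 9 that fell were among the 500 genes with the most negative change. Knockout ventricle gave the same counts, 9 lower and 1 higher, where 59 percent of all genes changed, 25 percent lower and 34 percent higher (16 and 53.3 with centring). There the groups of all 10 genes were separate, against 31 percent of all genes, 15.1 percent lower and 15.9 percent higher, and the median change was -2.03 against 0.098 over all genes. The RNA came from whole ventricle, in which fewer cells of a type and less RNA per cell cannot be told apart.

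**Figure D1:**
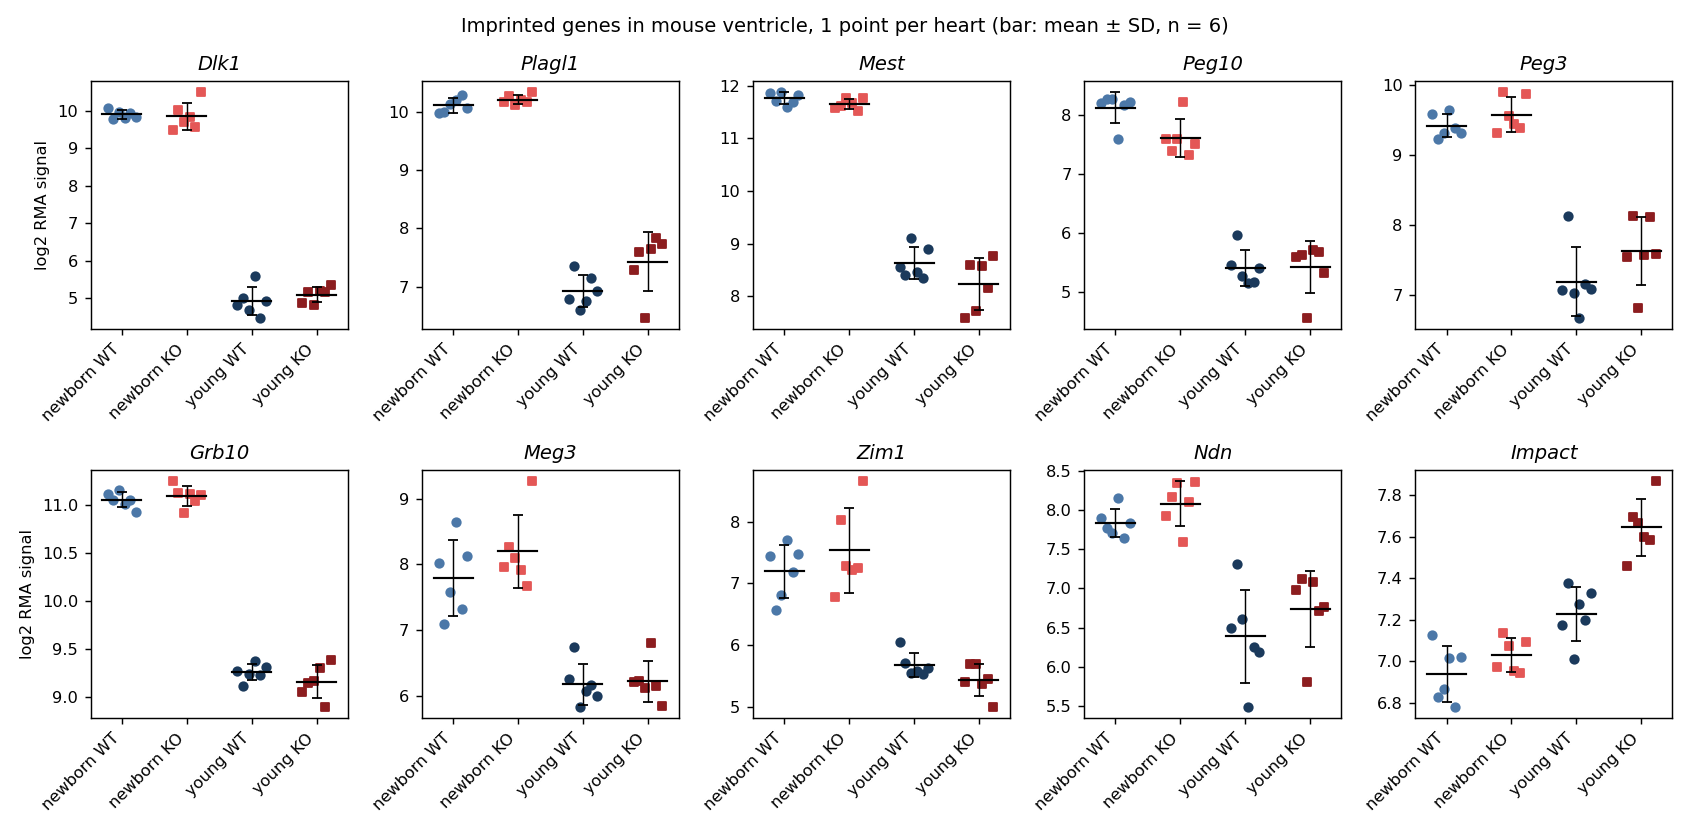
Log2 RMA signal of the 10 imprinted genes in each of the 24 hearts, by group (wild type circles, knockout squares, bars mean ± SD, n = 6), each panel with its own scale. In 9 panels all young hearts lie below all newborn hearts, while Impact is highest in the 6 young knockout hearts, from 7.46 to 7.87.

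Dlk1, which encodes a membrane and secreted protein with EGF repeats related to Notch ligands and is best known for holding back adipocyte differentiation, changed most. Its signal in newborn wild type hearts had a lowest value of 9.79, a median of 9.87 and a highest of 10.1, and in young wild type hearts 4.48, 4.88 and 5.59. No value came near the other age. The fall was 4.97 on the log2 scale (SE 0.16, limma adjusted p = 5.63e-18), which left 3.18 percent of the newborn level, and it was the third most negative change of all 18819 genes. In knockout hearts the values were 9.48, 9.75 and 10.5 at birth and 4.82, 5.17 and 5.36 at 30 days, a change of -4.74 (limma adjusted p = 1.45e-17). Grb10, an adaptor protein that binds the insulin and IGF1 receptors and restrains their signalling, varied little among hearts. It ran from 10.9 through a median of 11.1 to 11.2 in newborn wild type hearts and from 9.12 through 9.25 to 9.37 in young ones, and the groups were separate by more than their own ranges. It changed by -1.80 in wild type (SE 0.072, limma adjusted p = 5.75e-16) and by -1.94 in knockout (limma adjusted p = 1.27e-16).

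Plagl1, Peg3 and Zim1 encode zinc-finger proteins. Plagl1, also called Zac1, is a transcription factor that in the mouse acts on several other imprinted genes. Its signal was 9.97 at the lowest, 10.1 at the median and 10.3 at the highest in newborn wild type hearts, and 6.60, 6.86 and 7.35 in young ones. The newborn hearts were close together and the young ones far below them. It changed by -3.18 in wild type (SE 0.16, limma adjusted p = 3.42e-14) and by -2.77 in knockout (limma adjusted p = 4.82e-13). Peg3 ran from 9.24 through 9.35 to 9.65 in newborn wild type hearts and from 6.67 through 7.08 to 8.13 in young ones. Young wild type 2 supplied the highest of these young values, and the other 5 were at most 7.16. Peg3 changed by -2.22 in wild type and by -1.95 in knockout (SE 0.20 in both, limma adjusted p = 1.43e-09 and 1.57e-08). Zim1, its neighbour read from the maternal copy, changed by -1.52 in wild type and by -2.09 in knockout (SE 0.23 in both, limma adjusted p = 5.21e-06 and 4.92e-08). Zim1 was the most spread of these zinc-finger genes at birth, from 6.57 to 7.70 in wild type and from 6.77 to 8.66 in knockout.

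The promoters of 4 of these genes, which fell together and lie in different imprinted domains, are printed with the motif matches in capitals. RefSeq windows on build GRCm38.p6, from 250 bases before to 50 bases after a transcription start, were matched by symbol for 8 of the 9 genes that fell, with 12 windows in all. Each line runs 5′ to 3′ along the gene: Plagl1 is chr10:13090582-13090881 on the plus strand, Peg3 chr7:6730370-6730669 on the minus strand, Mest chr6:30737800-30738099 on the plus strand and Meg3 chr12:109540746-109541045 on the plus strand.
Plagl1: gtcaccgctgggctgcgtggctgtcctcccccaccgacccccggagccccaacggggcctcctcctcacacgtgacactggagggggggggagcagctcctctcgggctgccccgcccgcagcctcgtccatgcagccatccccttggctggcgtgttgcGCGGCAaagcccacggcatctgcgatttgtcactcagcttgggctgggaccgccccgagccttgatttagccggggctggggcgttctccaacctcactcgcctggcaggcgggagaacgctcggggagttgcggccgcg
Peg3: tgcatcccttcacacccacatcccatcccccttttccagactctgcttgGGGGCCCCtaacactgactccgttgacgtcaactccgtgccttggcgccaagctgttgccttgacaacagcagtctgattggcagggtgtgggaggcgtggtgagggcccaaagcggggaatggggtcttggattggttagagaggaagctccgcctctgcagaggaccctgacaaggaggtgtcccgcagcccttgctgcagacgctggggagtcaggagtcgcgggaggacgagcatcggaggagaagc
Mest: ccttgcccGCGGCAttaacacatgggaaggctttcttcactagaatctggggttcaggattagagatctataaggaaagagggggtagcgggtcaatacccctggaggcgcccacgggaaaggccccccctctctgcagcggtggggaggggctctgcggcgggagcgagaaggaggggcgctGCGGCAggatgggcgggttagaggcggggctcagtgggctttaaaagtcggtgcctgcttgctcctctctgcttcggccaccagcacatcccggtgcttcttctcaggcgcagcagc
Meg3: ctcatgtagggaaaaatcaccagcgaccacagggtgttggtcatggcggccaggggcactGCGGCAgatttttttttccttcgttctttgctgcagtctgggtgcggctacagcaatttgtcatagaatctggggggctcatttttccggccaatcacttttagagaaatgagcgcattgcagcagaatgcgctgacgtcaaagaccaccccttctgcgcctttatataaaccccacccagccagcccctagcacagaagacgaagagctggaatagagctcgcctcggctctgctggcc
The motif GGGGCCCC, known for PLAGL1 and its own reverse complement, was in 1 of the 12 windows, that of Peg3 at -201 from the start, and in 1.08 percent of 32851 windows of that length. TGCCGC, known for the imprint-keeping factor ZFP57 and printed above as its reverse complement GCGGCA, was on either strand in 6 of the 12 windows, of Mest, Plagl1, Grb10, Zim1 and Meg3, and in 11.6 percent of all windows. Of those windows 2 are overlapping starts of Mest, so they are the same letters counted again. AAGATGGC, known for YY1, was in 0 of the 12 windows and in 2.75 percent of all. No printed window holds more than 1 kind of these motifs, and that of Mest holds TGCCGC in 2 places. Every printed window holds a match, so the 4 do not stand for all 12. The windows of Dlk1 and Ndn, and a further window each of Mest, Grb10 and Meg3, hold none and are not printed. These matches describe letters in short windows, and binding was not measured.

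Meg3 is a long noncoding RNA of the maternal copy, in the Dlk1-Dio3 domain that it shares with Dlk1. Its newborn wild type values were 7.09, 7.79 and 8.64 (lowest, median and highest) and its young ones 5.83, 6.12 and 6.74. The ages were separate although newborn hearts differed among themselves. It changed by -1.62 in wild type (SE 0.24, limma adjusted p = 4.34e-06) and by -1.97 in knockout (limma adjusted p = 2.84e-07). Of 103 genes that RefSeq places from Dlk1 to Dio3 on chromosome 12, 42 were measured, 36 of them miRNA genes. In wild type 11 of the 42 fell and 0 rose with age, with a median change of -0.087, and the share that fell was close to the 27.9 percent of all genes that did. The long noncoding RNA Rian changed by -0.88 and the snoRNA gene AF357355 by -1.33. The mean signal of Rian, 3.11, lay in the lowest 30 percent of genes. Dio3, which encodes a deiodinase that inactivates thyroid hormone, had a difference of 0.05 in wild type (limma adjusted p = 0.612). In knockout 10 fell and 6 rose, where 25 percent of all genes fell and 34 percent rose. The risers changed by 0.21 to 0.47, with 0.35 for Dio3, whose mean signal of 2.26 lay in the lowest 30 percent of genes.

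**Figure D2:**
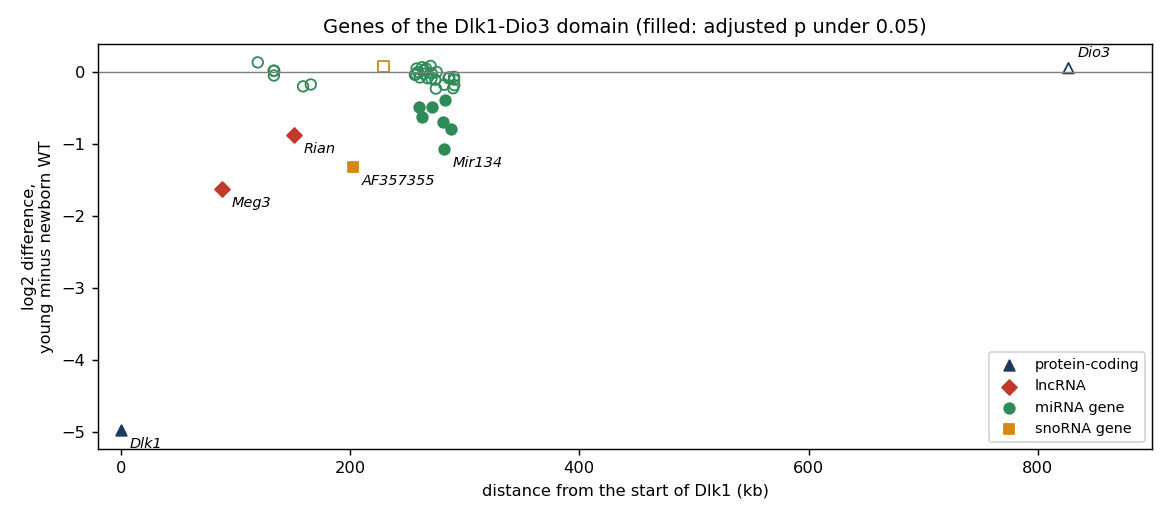
Change with age in wild type ventricle (log2 difference, young minus newborn) of the 42 measured genes from Dlk1 to Dio3, by distance from the start of Dlk1 in kb, with filled symbols for a limma adjusted p under 0.05. Dlk1 at -4.97 and Meg3 at -1.62 lie lowest, 7 miRNA genes are filled, and the other miRNA genes lie near 0.

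Among the 36 miRNA genes of the domain 7 fell in wild type, a smaller share than the 27.9 percent of all genes, so the count is no result about these miRNA genes as a group. The most negative were Mir134, Mir377 and Mir382, named here after their values were seen, and their mature RNAs are printed with the seed, bases 2 to 8, in capitals. The sequences are those of RefSeq on GRCm38.p6, plus strand of chromosome 12.
miR-134-5p: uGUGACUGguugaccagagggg
miR-134-3p: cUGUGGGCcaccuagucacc
miR-377-5p: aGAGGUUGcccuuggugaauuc
miR-377-3p: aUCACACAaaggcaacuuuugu
miR-382-5p: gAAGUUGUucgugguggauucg
miR-382-3p: uCAUUCACggacaacacuuuuu
No seed is shared among these RNAs. Mir134 ran from 4.15 to 5.47 in newborn and from 3.33 to 3.86 in young wild type hearts, without overlap, and its change was -1.07 (SE 0.19, limma adjusted p = 3.86e-05). Mir377 and Mir382 changed by -0.79 and -0.70. The mean signal of 24 of the 36 miRNA genes lay under 3.55, the lowest 30 percent of genes, so small changes there were hard to measure. Mir377, at a mean of 2.82, was among them. The probes read RNA of the miRNA genes, and the mature miRNAs were not measured.

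Mest, which encodes a protein with the fold of a hydrolase and marks mesoderm in the embryo, showed little spread at birth. It ran from 11.6 through 11.8 to 11.9 in newborn and from 8.34 through 8.51 to 9.10 in young wild type hearts. The gap between the ages was several times the spread at either. It changed by -3.13 in wild type (SE 0.16, limma adjusted p = 5.12e-14) and by -3.42 in knockout (limma adjusted p = 1.17e-14). Peg10 derives from a retrotransposon and is needed for the mouse placenta. Its newborn wild type values were 7.59, 8.22 and 8.28 (lowest, median and highest) and its young ones 5.16, 5.34 and 5.96. Newborn wild type 4 alone supplied the low newborn value. Peg10 changed by -2.72 in wild type (SE 0.18, limma adjusted p = 6.69e-12) and by -2.19 in knockout (limma adjusted p = 3.90e-10). Ndn, which encodes necdin, a MAGE-family protein that restrains cell division, fell least of the 9, changing by -1.44 in wild type and -1.34 in knockout (SE 0.22 in both, limma adjusted p = 6.65e-06 and 2.08e-05). Its young wild type hearts were widely spread, from 5.49 to 7.31, with every one below the lowest newborn heart at 7.64.

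Impact, which encodes an inhibitor of the eIF2alpha kinase GCN2, went the other way. In wild type it ran from 6.78 through 6.94 to 7.13 in newborn and from 7.01 through 7.24 to 7.37 in young hearts, and 5 of the 6 young hearts were above every newborn heart. The rise was 0.29 (SE 0.075, limma adjusted p = 0.00224). In knockout it ran from 6.94 through 7.02 to 7.14 at birth and from 7.46 through 7.63 to 7.87 at 30 days, without overlap, a rise of 0.62 (limma adjusted p = 2.23e-07).

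**Figure D3:**
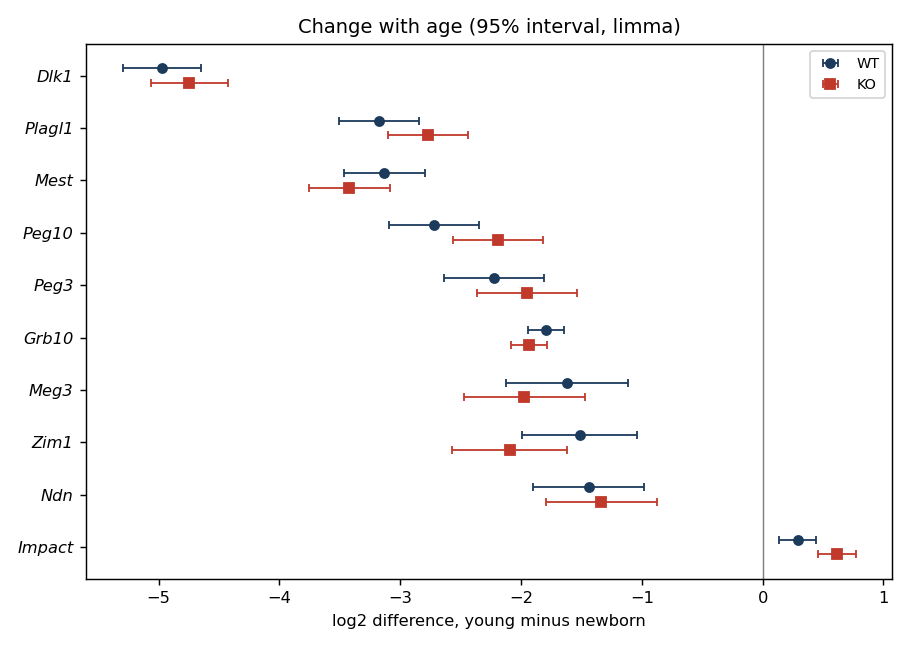
Change with age of each gene (log2 difference, young minus newborn, x axis) in wild type (circles) and knockout (squares) with 95% intervals from limma. Dlk1 lies near -5 in both genotypes, and Impact alone lies above 0, at 0.29 and 0.62.

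The other imprinted genes and a list of fetal growth genes give the setting of these changes. Over all genes 27.9 percent fell and 19.2 percent rose with age in wild type, and 25 and 34 percent in knockout. The counts below stand beside these shares. Of 50 other imprinted genes measured, of 64 listed, 28 fell and 4 rose with age in wild type, with a median of -0.30. In knockout 25 of them fell and 8 rose. The most negative in wild type were Mir675 at -4.14, Ddc at -2.90, Igf2 at -2.81, Nnat at -1.67 and Slc38a4 at -1.64. The risers were Htr2a at 0.51, Trappc9 at 0.45, Blcap at 0.42 and Ube3a at 0.17. Within the domains of the 10 genes, 18 of 25 listed neighbours were measured, and 9 fell and 1 rose in wild type. These neighbours are a part of the 50 other imprinted genes, not a further set. They include Ddc beside Grb10, which encodes the decarboxylase of dopamine and serotonin synthesis, and Sgce beside Peg10, a sarcoglycan gene, at -1.23. Of 10 fetal growth genes measured, of 12 listed, 9 fell in each genotype. In wild type the RNA-binding proteins Igf2bp3 and Igf2bp1, known for binding Igf2 mRNA, changed by -3.93 and -2.62, the heparin-binding growth factor Mdk by -2.81, and the transcription factors Sox11 and Sox4 by -2.29 and -1.56. Marker genes of other cell types changed with age too. All 13 cell division genes measured fell in both genotypes. In wild type 9 of 10 epicardial genes fell and 0 rose, 8 of 12 atrial genes fell and 1 rose, and 6 of 12 fibroblast genes fell and 2 rose, while 7 of 10 ventricular myocyte genes rose and 0 fell and 6 of 9 immune genes rose and 1 fell. Of 10 smooth muscle and pericyte genes 2 fell and 2 rose there, and of 10 endothelial genes 6 fell and 1 rose. In knockout 7 of 10 epicardial genes fell and 0 rose, 4 of 12 atrial genes fell and 1 rose, and 4 of 12 fibroblast genes fell and 3 rose. Of the ventricular myocyte genes 6 rose and 0 fell in knockout, and of the immune genes 7 rose and 1 fell. With the mean of the cell division genes as a covariate, 8 of the 9 falls still passed in each genotype, and the change of Ndn did not, at -1.22 in wild type and -1.16 in knockout (limma adjusted p = 0.124 and 0.0644), nor did that of Impact in wild type, at 0.24 (limma adjusted p = 0.419). These differences stayed near those without the covariate. The cell division mean itself fell with age, from 8.09 to 5.72 in wild type and from 7.39 to 5.44 in knockout. Such a fit can therefore hardly separate age from this mean. That covariate moved Peg10 to -1.61, Zim1 to -2.87 and Meg3 to -2.68 in wild type, and Peg10 to -1.28 and Zim1 to -3.21 in knockout. With the atrial mean as a covariate Ndn was at -0.81 and Peg3 at -1.48 in wild type, and with the fibroblast mean Ndn was at -0.89, all still past the threshold. The part of these cells in the falls was not tested further.

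The second question was whether caspase loss changed these genes at birth. None of the 10 passed between newborn knockout and wild type hearts by limma, where 0 percent of all 18819 genes passed, and at an unadjusted p under 0.05 there were 1 of the 10 and 1707 of all genes. The median difference was 0.09 against -0.05 over all genes, and no gene of the 10 had separate groups, as 0.489 percent of all genes did. The intervals still allow sizeable differences for the most variable genes: for Meg3 the difference was 0.40 with a 95% interval of -0.10 to 0.91, and for Zim1 0.34 with -0.14 to 0.81. The interval was narrow for Grb10, where the difference was 0.04 with -0.11 to 0.19, and for Impact, 0.09 with -0.06 to 0.25. Plagl1 at 0.10, Mest at -0.11, Peg3 at 0.16, Ndn at 0.25 and Dlk1 at -0.05 all had 95% intervals that included 0 (limma adjusted p of 0.743 to 0.935). The interval of Ndn was wide too, from -0.21 to 0.71.

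Peg10 was the one with an unadjusted p under 0.05. Its 6 newborn wild type hearts were 8.21, 8.28, 8.27, 7.59, 8.18 and 8.23 in order of their numbers, and the 6 newborn knockout hearts 7.60, 7.39, 7.60, 8.22, 7.32 and 7.52. In each group 5 hearts lay close together, and the heart numbered 4 lay among those of the other genotype. The difference was -0.52 (SE 0.18, limma adjusted p = 0.411), knockout lower. Without both arrays numbered 4 it was -0.75 (limma adjusted p = 0.0172), the 5 knockout hearts ran from 7.32 to 7.60 and the 5 wild type hearts from 8.18 to 8.28, and Peg10 was then the only gene of the 10 that passed, where 2.56 percent of all genes did. Ndn was the only other gene whose groups were then separate, with a difference of 0.41 (limma adjusted p = 0.463), and 5.76 percent of all genes were separate in that setting. Meg3 and Zim1 were then at 0.63 and 0.50 (limma adjusted p = 0.229 and 0.379), against 0.40 and 0.34 with all arrays. Both arrays numbered 4 also stood apart in the mean of 13 cell division genes. Wild type 4 was at 7.37 (others 7.96 to 8.45) and knockout 4 at 8.10 (others 6.50 to 7.82). All 13 were lower in newborn knockout at an unadjusted limma p under 0.05, and 0 passed after adjustment. Their mean was 7.39 in knockout and 8.09 in wild type (exact two-sided permutation p = 0.0411, adjusted 0.268). After group means were taken off, Peg10 had r = 0.62 with this mean over 24 arrays. Leaving out arrays that lie in the range of the other group widens a difference by construction, and the reason these arrays stood apart was not tested.

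**Figure D4:**
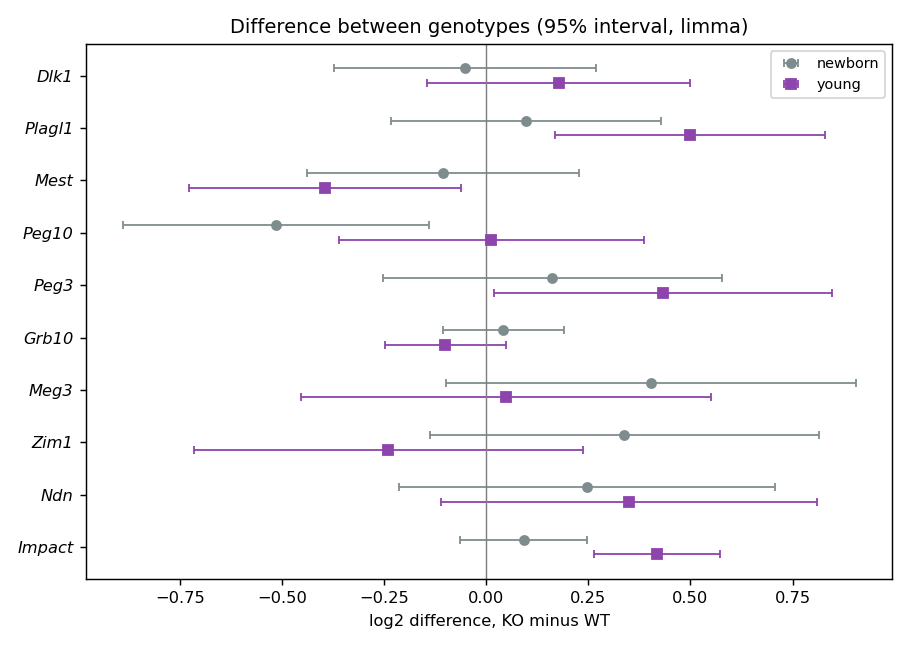
Difference between genotypes of each gene (log2 difference, knockout minus wild type, x axis) in newborn (circles) and young hearts (squares) with 95% intervals from limma. Impact in young hearts, at 0.42 from 0.26 to 0.57, alone passed the threshold adjusted over all genes, for which the intervals are not widened.

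In young hearts 1 of the 10 genes, Impact, differed between the genotypes, where limma called 1.02 percent of all genes, 0.67 percent higher and 0.351 percent lower. The 6 knockout hearts were 7.46, 7.70, 7.67, 7.60, 7.58 and 7.87, and the 6 wild type hearts 7.18, 7.37, 7.01, 7.28, 7.20 and 7.33. Every knockout heart was above every wild type heart, as in 0.42 percent of all genes, by a gap of 0.08. The mean was 7.65 ± 0.14 in knockout and 7.23 ± 0.13 in wild type (SD, n = 6 each), a difference of 0.42 (SE 0.075, limma adjusted p = 0.0076) with a 95% interval of 0.26 to 0.57, or 1.34-fold. The call ended when the fit used only the 12 young arrays (limma adjusted p = 0.0786) or took the mean of the atrial markers as a covariate (difference 0.37, limma adjusted p = 0.0647). With any one array left out it passed, with limma adjusted p of 0.00323 to 0.0226.

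The other 9 did not pass. Plagl1 ran from 6.47 through 7.62 to 7.84 in young knockout and from 6.60 through 6.86 to 7.35 in young wild type hearts. Of the knockout hearts 4 were above every wild type heart and 1, knockout 3, was below them all, with a difference of 0.50 (SE 0.16, limma adjusted p = 0.126). Peg3 ran from 6.81 through 7.57 to 8.13 in knockout and from 6.67 through 7.08 to 8.13 in wild type, a difference of 0.43 (SE 0.20, limma adjusted p = 0.309). Both had their overlap from the same arrays, knockout 3 low and wild type 2 high. Mest was lower in knockout on average, from 7.59 through 8.36 to 8.77 against 8.34 through 8.51 to 9.10, a difference of -0.40 (SE 0.16, limma adjusted p = 0.233). Ndn differed by 0.35 with a 95% interval of -0.11 to 0.81, Zim1 by -0.24 with -0.72 to 0.24, Dlk1 by 0.18 with -0.15 to 0.50, Grb10 by -0.10 with -0.25 to 0.05, Meg3 by 0.05 with -0.45 to 0.55 and Peg10 by 0.01 with -0.36 to 0.39.

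Over 24 arrays with group means taken off, the mean of the atrial markers varied most closely with Peg3, Plagl1 and Ndn. Its r was 0.91, 0.80 and 0.69 with these genes, and from -0.44 for Grb10 to 0.52 for Peg10 with the others. All 12 atrial marker genes were higher on average in young knockout hearts and 0 of them passed, and their mean was 8.01 ± 1.10 (SD, n = 6, range 6.13 to 9.16) in knockout and 6.62 ± 1.17 (SD, n = 6, range 5.72 to 8.64) in wild type, a difference of 1.40 (exact two-sided permutation p = 0.0671, 0.268 after adjustment over 20 tests). The fibroblast markers were 8.83 ± 0.59 in knockout and 8.26 ± 0.56 in wild type (SD, n = 6 each, exact two-sided permutation p = 0.117, adjusted 0.268). The arrays apart in Plagl1 and Peg3 were those apart in these lists: wild type 2 had fibroblast and adipocyte means of 9.21 and 8.02, the highest of its group, and knockout 3 had 7.75 and 5.28, the lowest of its group. Other lists differed on average too, and none passed after adjustment. The smooth muscle and pericyte mean was higher in knockout, 9.40 against 8.83 (exact two-sided permutation p = 0.0519, adjusted 0.268). So was the epicardial mean, 6.49 against 5.66 (exact two-sided permutation p = 0.128, adjusted 0.268). The ventricular myocyte mean was lower in knockout, 12.46 against 12.51 (exact two-sided permutation p = 0.0455, adjusted 0.268). With the atrial mean as a covariate the differences were -0.12 for Peg3 and -0.11 for Ndn, of opposite sign to those without it, and 0.12 for Plagl1, against 0.50 without it. Beyond such fits the part of these markers in the values was not tested.

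**Figure D5:**
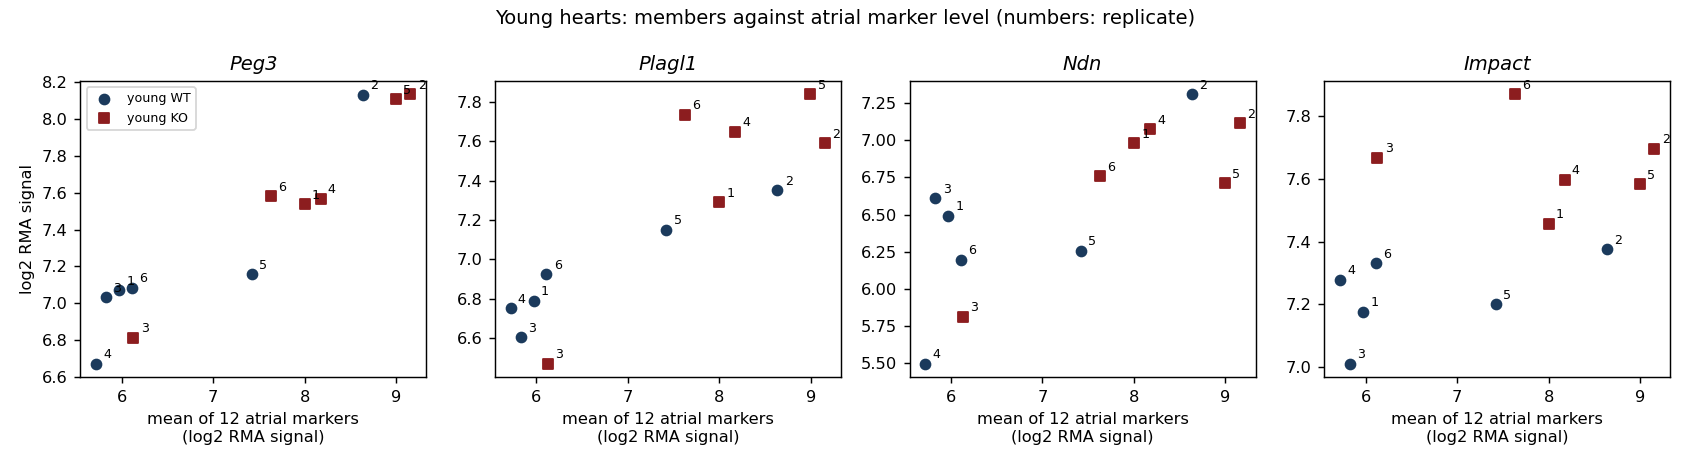
Log2 signal of Peg3, Plagl1, Ndn and Impact (y axis, own scale) against the mean log2 signal of 12 atrial marker genes (x axis) in the 6 young wild type (circles) and 6 young knockout hearts (squares), numbered by replicate. For Peg3, wild type 2 at 8.13 lies among the knockout hearts and knockout 3 at 6.81 among the wild type hearts, and for Impact the groups do not overlap.

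Without both of those arrays, a setting chosen after seeing the data, 4 of the 10 genes passed in young hearts, where 8.43 percent of all genes did: Impact at 0.44, Peg3 at 0.78 (limma adjusted p = 0.000665), Plagl1 at 0.78 (limma adjusted p = 2.53e-05) and Ndn at 0.72 (limma adjusted p = 0.00745). Both arrays lay towards the other genotype, so leaving them out widens the differences by construction and sets the atrial means of the groups further apart. Without wild type 2 alone 4.17 percent of all genes passed, with Plagl1 at 0.58 and Peg3 at 0.62, and without knockout 3 alone 4.28 percent, with Plagl1 at 0.69. Of the other imprinted genes 2 of 50 passed in young hearts with all arrays, where 1.02 percent of all genes did. Both were higher in knockout and both are of the Igf2 and H19 locus, Igf2 at 0.51 and Mir675 at 0.69. Of the fetal growth genes Mdk was higher at 0.68 and Sox4 lower at -0.75. None of the 42 genes of the Dlk1-Dio3 domain passed at either age, where 0 percent of all genes passed at birth and 1.02 percent in young hearts. With shares this low the count is no result about the domain.

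The difference between the genotype effects at the 2 ages was tested as an interaction. None of the 10 passed, where 0.0106 percent of all genes did. Impact had the lowest p, with a difference between the ages of 0.33 (95% interval 0.11 to 0.55, limma adjusted p = 0.258). Peg10 at 0.53, Plagl1 at 0.40 and Zim1 at -0.58 had limma adjusted p of 0.39 to 0.462, and their falls with age were not shown to differ between the genotypes. Without young wild type 2 and young knockout 3, Plagl1 at 0.68 (limma adjusted p = 0.00674) and Peg10 at 0.81 (limma adjusted p = 0.0235) passed, as 2.72 percent of all genes did.

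Hearts of 1 group also differed together. After each group's mean was taken off, 45 pairs of the 10 genes were compared over the 24 arrays, and 3 pairs passed by both measures in a permutation test with 100000 shuffles within groups. Peg3 and Ndn gave Pearson r = 0.80 and Spearman rho = 0.63 (permutation p = 0.00047 and 0.00238, adjusted 0.0106 and 0.0268), Peg3 and Plagl1 r = 0.76 and rho = 0.70 (permutation p = 0.0008 and 0.0002, adjusted 0.012 and 0.00472), and Meg3 and Zim1 r = 0.76 and rho = 0.77 (permutation p = 0.00045 and 0.00021, adjusted 0.0106 and 0.00472). Without the 2 arrays farthest out in the first gene r was 0.59, 0.57 and 0.58. Within the 4 groups r ran from 0.57 to 0.90 for Peg3 and Ndn and from 0.18, in newborn wild type, to 0.86 for Peg3 and Plagl1. The cell type markers varied with these genes in the same values, given as a description over 24 arrays without a test: Peg3 had r = 0.91 with the atrial and 0.87 with the fibroblast mean, Ndn 0.69 and 0.84, and Plagl1 0.80 and 0.69. Meg3 and Zim1 had r = -0.67 and -0.75 with the ventricular myocyte mean. Whether the pairs vary together apart from these markers was not tested. Meg3 and Zim1, on different chromosomes, varied together at birth, with r = 0.89 in newborn wild type and 0.88 in newborn knockout, and less among young hearts, with r = 0.38 and 0.25. Pairs within a domain did not pass: Dlk1 and Meg3 gave r = 0.38 and rho = 0.33 (permutation p = 0.0751 and 0.116, adjusted 0.241 and 0.307), and Peg3 and Zim1 r = 0.34 and rho = 0.48 (permutation p = 0.0367 and 0.022, adjusted 0.182 and 0.124). Without the 2 arrays farthest out r was 0.21 and 0.58 for these pairs, and within groups it ran from -0.07 to 0.92 and from -0.08 to 0.93, highest in newborn knockout for both. Of all genes, those most like Plagl1 by this r over 24 arrays were Tbc1d8 at 0.89, Tcaf1 at 0.89 and Atg4c at 0.88, and those most like Impact were Plekhg2 at 0.70, Stra6 at 0.69 and Cep164 at 0.67. These were picked as the highest of all genes, so their size is given without a test. Mir134, the gene most like Meg3 at 0.87 and named after its value was seen, lies in the same domain.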

How the data were processed

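Total RNA from ventricle was hybridised to single-colour Affymetrix arrays, and the deposited table holds log2 values that the authors made with RMA, which corrects background, quantile-normalizes and summarises probes (submitters' processing notes: R 2.15, oligo 1.22, limma 3.14). The genome build was not given in the sources used here. Of 35017 rows, 21118 carried 1 gene symbol, 1735 several and 12164 none, and 21085 matched the RefSeq table by Entrez number with 0 symbols changed. The brightest row per gene gave 18819 genes. The 10 genes and all gene lists were chosen with earlier results of these data known. limma 3.58.1 in R 4.3.3 fitted 1 mean per group over 24 arrays with 20 residual degrees of freedom and Benjamini-Hochberg adjustment over all 18819 genes, called at 0.05. The fit was tested on simulated data. Marker lists were compared by exact permutation (SciPy 1.17.1). Array number, not depth, limits precision. That replicates are separate animals follows from the methods. No 2 of 276 array pairs were identical. Named genes were every member, up to 5 called genes per list, direction and comparison, and 3 correlates each of Plagl1 and Impact. There were 42 alternative settings: signal filter, fold change, threshold, centring, quantile normalization, variance trend, array weights, replicate block, row choice, all rows, only the compared arrays, marker and Xist covariates, and arrays left out. The targeted genes are not reported here, so the genotype labels were not checked on them.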

Additional observations from a re-analysis of the deposited data

Results flagged for a closer look

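Within each gene and group of 6, the highest or lowest array was compared with the rest by Dixon's test at 95%. Of 40 groups 8 had such an array, and chance gives about 1 in 20. The newborn arrays numbered 4 account for 2, both for Peg10: newborn wild type 4 at 7.59, where the others ran from 8.18 to 8.28, and newborn knockout 4 at 8.22, where the others ran from 7.32 to 7.60. Young wild type 2 and young knockout 3 account for 4. Wild type 2 was high for Peg3 at 8.13 (others 6.67 to 7.16) and for Peg10 at 5.96 (others 5.16 to 5.46). Knockout 3 was low for Ndn at 5.81 (others 6.71 to 7.12) and for Peg10 at 4.56 (others 5.33 to 5.72). The remaining 2 were Meg3 in newborn knockout 6 at 9.27 (others 7.67 to 8.27) and Zim1 in young wild type 1 at 6.05 (others 5.54 to 5.72).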

How the results depend on the processing

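Of 2080 repeats of the single-gene results, 2027 kept direction and side of the threshold. Many of these repeats could not change direction. Leaving out an array outside a comparison leaves its difference the same, and the fold change and stricter threshold settings reuse the main fit. The count is therefore no measure of how firm the results are. All 10 genes stayed called with age in both genotypes in every setting that leaves out arrays. With the mean of the cell division genes as a covariate, the age change of Ndn no longer passed, at -1.22 in wild type and -1.16 in knockout against -1.44 and -1.34 (limma adjusted p = 0.124 and 0.0644), nor did that of Impact in wild type, at 0.24 against 0.29 (0.419), which also lies under a fold change of 1.5. The number of genes called in young knockout against wild type, 1 of 10, was 0 with a fold change of at least 1.5, with only the compared arrays, and with the atrial covariate over all arrays or only the compared ones (Impact adjusted p = 0.313 in the latter), 2 with array weights (Plagl1, 0.0428), 4 without both young arrays apart in markers, and 1 to 3 with one array left out. Plagl1 passed without young wild type 2 (0.0402) or young knockout 3 (0.00135), and Peg3 without young wild type 2 (0.0401). At birth the number was 1 without both arrays numbered 4, and the interaction had 2 without both young arrays apart.

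Signs turned only for differences that had not passed. In young knockout against wild type, median centring gave -0.020 for Meg3 and -0.056 for Peg10, and quantile normalization -0.073 for Peg10. The atrial covariate gave -0.30 for Meg3, -0.12 for Peg3, -0.11 for Ndn and -0.27 for Peg10, and within only the compared arrays -0.16, -0.13, -0.15 and -0.36. The fibroblast covariate gave -0.21 for Meg3, -0.0063 for Peg3, -0.12 for Ndn and -0.27 for Peg10, and the cell division covariate -0.080 for Meg3. In the interaction, Peg3 and Ndn were -0.22 and -0.31 with the atrial and -0.17 and -0.37 with the fibroblast covariate, and Ndn -0.059 without both arrays numbered 4. At birth the cell division covariate gave 0.17 for Mest and -0.064 for Zim1. With one array left out, Dlk1 at birth ran from -0.18 to 0.019, Meg3 in young hearts from -0.067 to 0.16, Peg10 in young hearts from -0.047 to 0.18 and Ndn in the interaction from -0.077 to 0.29. The cause was not tested.

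Over all genes, the young comparison called 192 genes, from 8 to 1586 over the settings, the newborn one 0, up to 482, the interaction 2, from 1 to 512, and age 8854 in wild type (2714 to 12831) and 11110 in knockout (3235 to 13040). Testing all 35017 rows in place of genes called 17090 rows with age in knockout. Young wild type 2 and young knockout 3 decide most of the young count, which was 784 and 806 without each. Median centring moved the median age change of all genes to 0.26 in wild type and 0.27 in knockout, and the calls to 52.3 percent higher and 15.9 percent lower in wild type and 53.3 and 16 in knockout, where the 9 falling genes still fell.

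Replicate numbers are shared between groups. Same-numbered newborn wild type and knockout arrays deviated together with r of -0.438 to 0.13, and 0 of 6 correlated best with their own number. Young ones had r of -0.222 to 0.645, and 4 of 6 correlated best with their own number. Between newborn knockout and young wild type 4 of 6 did as well. What the numbers stand for is not given, so the main fit did not take them as pairs. With the number as a block, the replicate block changed no call of the 10 genes, Impact kept its difference of 0.42 in young hearts (limma adjusted p = 0.0104), and the interaction count over all genes went from 2 to 1.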
